A study of Parascaris univalens with 7 samples.

Results

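The ovary of the horse roundworm Parascaris univalens was compared with 2 adult somatic tissues, intestine and carcass. Carcass is what is left of the worm, body wall included, once organs have been taken out. The series holds 7 libraries, and these 3 entered the comparison, 1 per tissue. All came from adult worms of a North American wildtype strain, dissected from the horse gut, with tissue frozen before RNA extraction. The ovary is labelled female germline, whereas intestine and carcass are labelled male somatic, so that sex and tissue cannot be told apart in any difference given here. No label says how many worms gave each sample, and no allele or treatment is named. Testis (male germline) and embryo (labelled male somatic) are given beside the results for orientation only. Each of the 15027 annotated genes was represented by 1 transcript. A gene was called higher in ovary when its log2(RPKM + 1) in ovary was at least 2 above the higher of intestine and carcass, a 4-fold difference, with at least 5 RPKM in ovary. It was called higher in intestine and carcass when the lower of these was at least 2 above ovary and at least 5 RPKM. RPKM is the number of reads per kilobase of transcript and per 1e+06 reads of the library. Each tissue had 1 library, so no replicate error could be given and no test was made. A bulk level cannot separate fewer cells of a type from less RNA per cell.

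The nematode ovary is a long tube in which germ cells divide, pass through meiosis and grow into oocytes. A growing oocyte stores messenger RNA and protein for the embryo, takes up yolk that the intestine makes, and lays down the layers of the eggshell after fertilization. In Parascaris and its relatives the germline keeps the whole genome, whereas future somatic cells lose some of their DNA during early cleavages, a process called programmed DNA elimination. The authors' table marks each gene as eliminated or retained. Gene names in the table were carried over by similarity, and the roles given below are those of the named proteins in other species, mostly Caenorhabditis elegans.

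The depth behind the values was 31800000 reads in ovary, 18550000 in intestine and 27600000 in carcass, recovered from the whole-read steps of low values. For a transcript of the median length of 1325 nt, 3 reads corresponded to 0.0712 RPKM in ovary, 0.122 in intestine and 0.082 in carcass. The ovary label fitted its markers: 26 genes named for chondroitin proteoglycans, ovarian messages or chitin synthase summed to 38528 RPKM in ovary, 163 in intestine and 121 in carcass. Muscle markers (26 genes) summed to 719 RPKM in ovary, 385 in intestine and 6546 in carcass. Cuticle markers (187 genes) summed to 916, 272 and 53897 RPKM in the same order. Intestinal markers (41 genes) summed to 580, 7475 and 1475 RPKM. Neuronal markers (121 genes) summed to 995 RPKM in ovary, 357 in intestine and 492 in carcass, so that they did not set carcass apart. Sperm markers (63 genes) summed to 251 RPKM in ovary, 1031 in intestine, 500 in carcass and 39729 in testis. Vitellogenin, a yolk protein that female nematodes make, was abundant in the intestine labelled male, at 961.1 RPKM for PgR126X_g018. The sex of the worms was not tested, so the male label is uncertain.

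Across genes abundant in intestine and low in ovary, carcass held a similar share of the intestine level. For 102 genes that reached 100 RPKM in intestine while ovary held no more than 1% of it, carcass stood at a median of 19.6% of intestine, with an interquartile range of 16.4% to 22.8%. The same genes stood at a median of 10.3% of intestine in embryo, 3.64% in testis and 0.0851% in ovary. In the other direction, 14 cuticle genes with at least 500 RPKM in carcass had a median of 0.285% of that level in intestine. For 79 genes with at least 500 RPKM in testis and at most 1% of that in ovary, intestine held a median of 1.79%, carcass 1.09% and ovary 0.0316% of the testis level. The source of these shares was not tested. Calls are given below with and without 20% of the intestine value taken from carcass, and with and without genes high in testis. The 20% is named the intestinal share for short, whatever its source. The 53 genes called higher in ovary with at least 500 RPKM there had medians of 1.09% of that level in intestine and 0.44% in carcass, where the call itself requires low values.

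Of the 15027 genes, 2411 were called higher in ovary (16.0%) and 505 were called higher in intestine and carcass (3.36%). Among the 12574 genes with at least 1 RPKM in any of the 3 tissues, ovary had the highest value for 7813 and the lowest for 2226. The median difference between ovary and the mean of both somatic tissues was 1.11 on the log2 scale, so the whole distribution was shifted towards ovary. The shift depended on how libraries were scaled. Median-of-ratios scaling moved the median by -1.22 to -0.11 and left 925 genes higher in ovary (6.16%) and 868 higher in intestine and carcass (5.78%). The 925 were all among the 2411, and the 868 included all 505. The share of ovary calls among all calls went from 82.7% to 51.6%. The 20 most abundant genes held 24% of the summed RPKM in ovary, 37.8% in intestine and 36.5% in carcass. Gene lists are therefore read below against the median of all genes, and counts of calls are also given under median-of-ratios scaling.

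**Figure D1:**
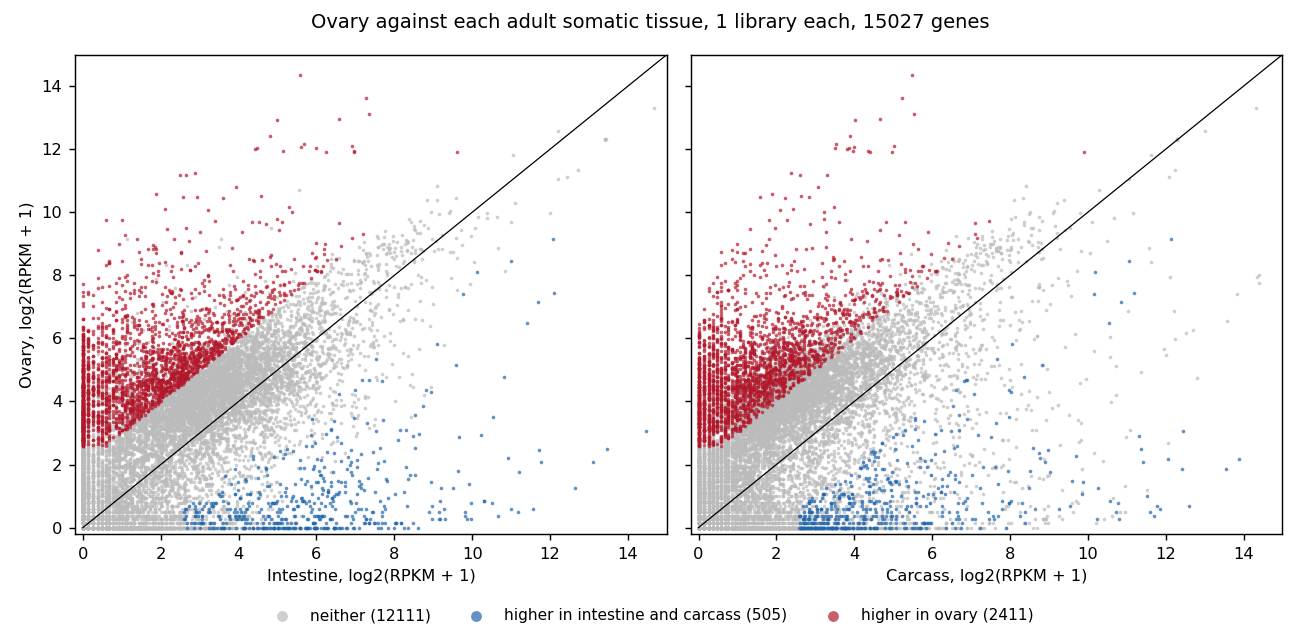
Each point is 1 of 15027 genes, with log2(RPKM + 1) in ovary on the vertical axis and in intestine (left) or carcass (right) on the horizontal axis; the line marks equal values. The 2411 genes called higher in ovary lie above the line in both panels and the 505 called higher in intestine and carcass lie below it.

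Genes for the eggshell led the ovary side. Of 27 genes named for chondroitin proteoglycans or chitin metabolism, 16 were called higher in ovary (59.3%, against 16.0% of all genes) and 1 in soma. Under median-of-ratios scaling 15 stayed called. The list's median difference between ovary and the higher somatic tissue was 5.22, against 0.67 for all genes. Chondroitin proteoglycan 3 (PgR176_g006, on scaffold PgR176 from 52983 to 60040, minus strand, 5 exons) had the highest ovary level and the largest difference among the 2411 ovary calls. Its level was 20766.2 RPKM in ovary, with a counting interval of 20721 to 20812, and 46.6 RPKM in intestine and 43.5 in carcass. This was 446-fold above the higher somatic tissue, a difference of 8.77 on the log2 scale. Embryo held 337 RPKM and testis 42.6 RPKM of the same gene, so that ovary stood far above the other 4 tissues.

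Other proteoglycan genes were also far higher in ovary than in soma, at lower levels, while their embryo levels varied. PgR113_g007, also named chondroitin proteoglycan 3, was at 5464.9 RPKM in ovary, 27 in intestine, 13.8 in carcass and 1549.5 in embryo. PgR113_g009, which follows it on the scaffold, was at 2311.1 RPKM in ovary, 5.3 in intestine, 5.1 in carcass and 106 in embryo. Chondroitin proteoglycan-2 (PgR008_g092), named for a protein of the inner eggshell of C. elegans, was at 1441.3 RPKM in ovary, 6.6 in intestine and 6.1 in carcass, and at 3.4 in embryo. Both chitin synthase 8 genes that were called lie in eliminated DNA. PgE051_g001 was at 418.9 RPKM in ovary, 4.7 in intestine and 1.3 in carcass, and PgB07_g103 was at 157.6, 0.9 and 0.4 RPKM. Chitin synthase makes the chitin layer of the eggshell. The retained gene of that name, PgR065_g014, had no reads listed in ovary and at most 0.9 RPKM in any tissue. The 1 member called in soma, a chitin-binding peritrophin-A domain gene (PgR042_g107), was at 0.3 RPKM in ovary, 7.4 in intestine and 207.8 in carcass.

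Genes named for ovarian messages and for the sperm-egg surface formed a list of 21, of which 13 were called higher in ovary (61.9%) and 1 in soma, with the same counts under median-of-ratios scaling. PgR020_g100, named for an immunosuppressive ovarian message, reached 4105.4 RPKM in ovary, 20.5 in intestine and 13.0 in carcass, a difference of 7.58. Zonadhesin is a sperm protein of mammals that binds the egg coat, and the genes given its name here went both ways. PgR004_g028 was at 1066.2 RPKM in ovary, 8.2 in intestine and 3.3 in carcass, and its neighbour PgR004_g030 was at 730.8, 5.3 and 2.9 RPKM. PgR006_g052 was at 319.1 RPKM in ovary and 0.5 in each somatic tissue. PgR030_g100, another zonadhesin, was at 2.4 RPKM in ovary, 2355.1 in intestine and 522.6 in carcass. The name therefore covers genes of the gonad and genes of the gut.

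The yolk genes had the opposite pattern to the eggshell genes. Of 4 vitellogenin-6 genes, 0 were called higher in ovary and 3 in intestine and carcass. PgR126X_g018 was at 1.6 RPKM in ovary, 961.1 in intestine, 205.8 in carcass, 2.4 in testis and 96.4 in embryo. PgR126X_g019 and PgR126X_g020 lie within it in the other orientation, and reads of these 3 genes may be mixed. Their carcass levels were close to the share of intestine seen for other intestinal genes: for PgR126X_g018 it was 21.4%. The fourth gene, PgR057_g055, was at 3.2 RPKM in ovary, 0.7 in both somatic tissues and 54.4 in testis. Of 11 genes for lipoprotein receptors, the family through which oocytes take up yolk, 1 was called higher in ovary. This was low-density lipoprotein receptor-related protein 2 (PgR083X_g033), at 129.4 RPKM in ovary, listed at 0 in intestine and at 0.5 RPKM in carcass.

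**Figure D2:**
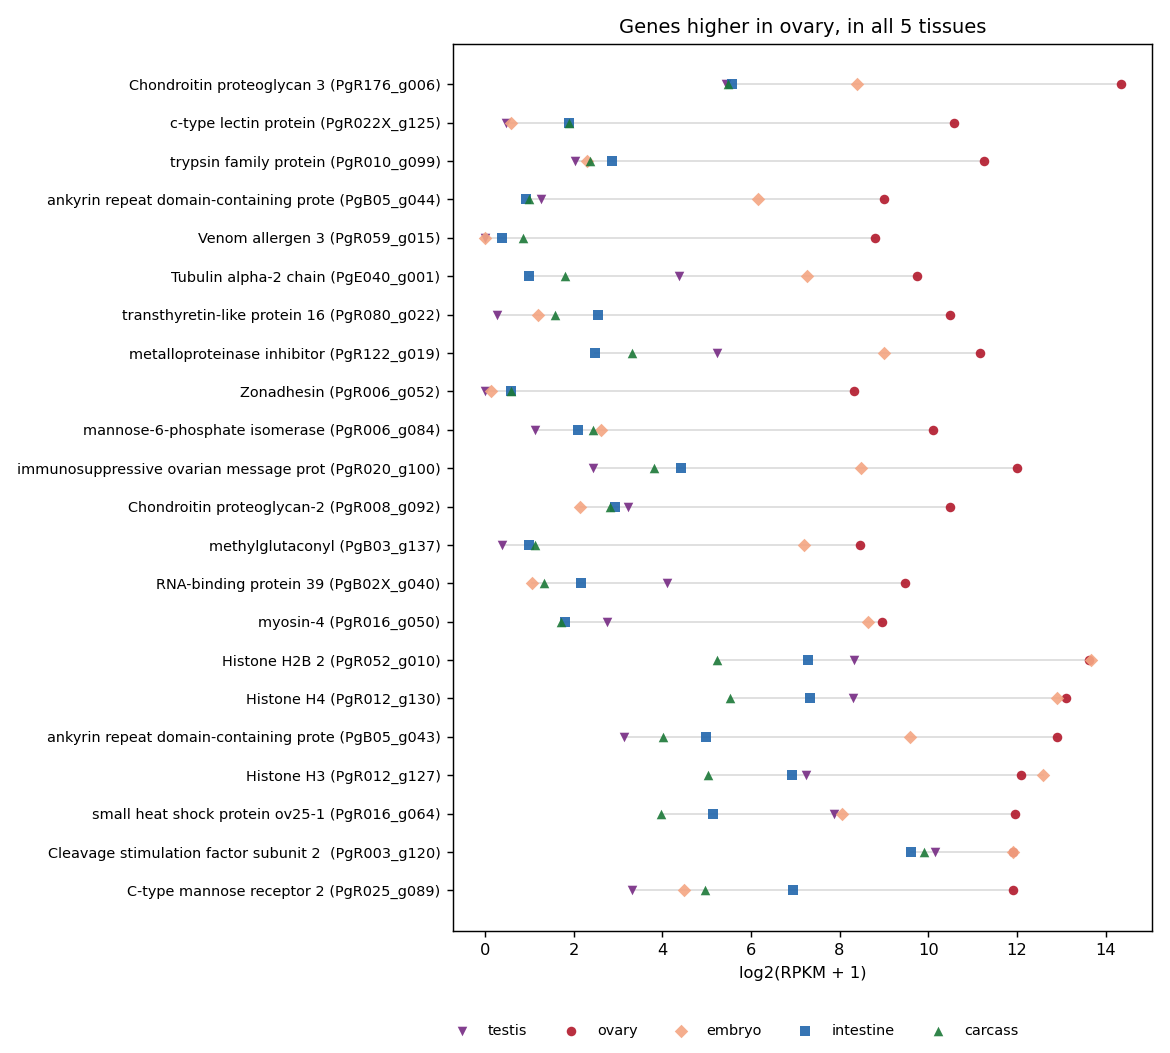
Each line of the plot is 1 gene called higher in ovary, named by the rule of largest difference or highest level, and each symbol is log2(RPKM + 1) in 1 of the 5 tissues, 1 library each. Ovary lies far to the right of intestine and carcass in all but PgR003_g120, whereas embryo lies beside ovary for the histones and myosin-4 and beside soma for the lectin, trypsin, venom allergen and zonadhesin genes.

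Several families of secreted proteins held single members at very high levels in ovary while other members were highest in the gut or body wall. C-type lectins and mannose receptors, which bind sugars, had 7 of 22 members called higher in ovary and 5 in soma. C-type mannose receptor 2 (PgR025_g089) was at 3850.4 RPKM in ovary, 123 in intestine and 30.2 in carcass. A c-type lectin (PgR022X_g125) was at 1531.5 RPKM in ovary and 2.7 in each somatic tissue, but it lies inside a gene of the same name on the other strand, PgR022X_g126. In contrast C-type lectin protein 160 (PgR010_g147) was at 4.6 RPKM in ovary, 11304.7 in intestine and 2637.3 in carcass. Transthyretin-like proteins, a large secreted family of nematodes, had 5 of 39 members called in ovary and 7 in soma, or 2 and 11 under median-of-ratios scaling. Transthyretin-like protein 16 (PgR080_g022) was at 1441.7 RPKM in ovary, 4.9 in intestine and 2.0 in carcass. Transthyretin-like protein 46 (PgR064_g020) was at 1.7 RPKM in ovary, 493.5 in intestine and 101.8 in carcass. The lectin shares, 31.8% in ovary and 22.7% in soma, were both above the 16.0% and 3.36% of all genes. For transthyretin-like genes the shares were 12.8% and 17.9%, so that only the soma share was above that of all genes. The median differences between ovary and the higher somatic tissue were -0.4 for lectins and -2.98 for transthyretin-like genes, against 0.67 for all genes.

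Proteases and their inhibitors were also among the leading ovary genes. A trypsin family protein (PgR010_g099) was at 2435.4 RPKM in ovary, 6.3 in intestine and 4.2 in carcass, a difference of 8.38. A metalloproteinase inhibitor (PgR122_g019) was at 2305.1 RPKM in ovary, 4.6 in intestine, 8.9 in carcass and 508.8 in embryo. Serpins and other protease inhibitors had 5 of 22 members called in ovary and 0 in soma, and the median difference of the list was -0.42, below that of all genes. Venom allergen 3 (PgR059_g015), of a secreted family common in parasitic worms, was at 444.2 RPKM in ovary, 0.3 in intestine, 0.8 in carcass and listed at 0 in both testis and embryo. Mannose-6-phosphate isomerase (PgR006_g084), an enzyme of sugar nucleotide synthesis, was at 1097.9 RPKM in ovary, 3.3 in intestine and 4.4 in carcass. The small heat shock protein ov25-1 (PgR016_g064), a chaperone, was at 3965.2 RPKM in ovary, 34.2 in intestine and 14.7 in carcass. An ankyrin repeat protein (PgB05_g043) reached 7715 RPKM in ovary, 30.5 in intestine and 15.2 in carcass. Cleavage stimulation factor subunit 2 (PgR003_g120, tau variant), which acts in the cutting of messenger RNA before poly(A) addition, was called by the narrowest margin of the genes with the highest levels. It was at 3862 RPKM in ovary, 786.4 in intestine and 957.3 in carcass, a difference of 2.01 that was 0.25 under median-of-ratios scaling.

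Regulators of stored messenger RNA were strongly represented. Of 57 genes named for RNA-binding regulators of the germline, 27 were called higher in ovary (47.4%) and 0 in soma, or 18 and 1 under median-of-ratios scaling and 8 and 0 without genes high in testis. The list's median was 1.93, against 0.67 for all genes. GLD-1, which represses translation in the C. elegans germline, was represented by PgR043_g016 at 452.4 RPKM in ovary, 2.2 in intestine, 1.5 in carcass, 245.7 in embryo and 20.4 in testis. A second gld-1 gene, PgR075_g039, was at 112.6 RPKM in ovary, 0.8 in intestine and 0.5 in carcass. Tristetraprolin, a zinc finger protein that binds messenger RNA, was represented by PgR011_g163 at 245.1 RPKM in ovary, 2.1 in intestine and 2.0 in carcass, and it was listed at 0 in testis. The eliminated tristetraprolin gene PgE019_g004 was at 162.6 RPKM in ovary, 2.0 in intestine and 0.3 in carcass. Cytoplasmic polyadenylation element-binding protein, which controls the length of poly(A) tails, was at 131.1 RPKM in ovary, 1.1 in intestine and 0.5 in carcass for the eliminated gene PgE096_g001. Of the 20 eliminated members of the list, 15 were called in ovary, and of the 37 retained members, 12 were, where the shares over all genes were 26.4% of eliminated and 15.3% of retained genes. In contrast, maternal protein pumilio (PgR071_g010) was at 42.7 RPKM in ovary, 63.9 in intestine and 21.7 in carcass.

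Argonaute proteins carry small RNAs, and tudor domain proteins gather in germ granules. Of 29 genes for these, 19 were called higher in ovary (65.5%) and 0 in soma, or 11 and 1 under median-of-ratios scaling. Only 3 were left in ovary when genes at least 4-fold higher in testis than in both somatic tissues were removed, since most of the called members were also high in testis. The Argonaute CSR-1 (PgR178_g009), which binds small RNAs against germline transcripts in C. elegans, was at 66.7 RPKM in ovary, 2.4 in intestine and 1.1 in carcass. Testis held 75.8 RPKM and embryo 74.8 RPKM of it, so it was not an ovarian message among the germline tissues. The eliminated gene PgE262_g002, named argonaute alg-6, was at 39 RPKM in ovary, 1.0 in intestine and listed at 0 in carcass. Of the 13 eliminated members, 10 were called in ovary, and of the 16 retained members, 9 were. A tudor domain gene, PgB05_g131, had 0.1 RPKM in ovary, 20.5 in intestine and 4.8 in carcass, against 504.9 RPKM in testis.

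The machinery of the dividing nucleus was higher in ovary as a group. DNA replication genes had 37 of 67 members called (55.2%) and 0 in soma, with a median difference of 2.22. Under median-of-ratios scaling 11 stayed called. Proliferating cell nuclear antigen (PgR028_g026), the clamp of the replication fork, was at 77.2 RPKM in ovary, 9.9 in intestine, 3.7 in carcass and 63.4 in embryo. The helicase subunit mcm-5 (PgR166_g009) was at 90.2 RPKM in ovary, 6.3 in intestine and 0.8 in carcass. DNA polymerase zeta (PgB01_g083, catalytic subunit), a polymerase that copies damaged DNA, was at 247.7 RPKM in ovary, 4.0 in intestine and 8.0 in carcass, the highest level in the list. Replication factor C subunit 2 (PgR067_g003), part of the complex that loads the replication clamp, was at 176.3 RPKM in ovary, 12.8 in intestine and 5.7 in carcass. Meiosis and recombination genes had 5 of 12 members called in ovary, or 2 under median-of-ratios scaling. The enzyme that starts meiotic recombination, spo-11 (PgR041_g004), was at 13.6 RPKM in ovary, 2.9 in intestine and 2.3 in carcass, a difference of 1.90 that missed the call.

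Mitosis and chromosome segregation genes had 40 of 104 members called in ovary (38.5%) and 0 in soma, or 24 under median-of-ratios scaling and 16 without genes high in testis. Of the 21 eliminated members 14 were called, and of the 83 retained members 26 were. The member with the highest level in ovary was not called. This was Condensin-2 complex subunit g2 (PgE075_g001), an eliminated gene whose product helps to compact chromosomes. It was at 535.9 RPKM in ovary, 325.2 in intestine and 421.4 in carcass. By contrast, PgR064_g030, named for a spindle- and centromere-associated protein, was at 4.9 RPKM in ovary, 1.6 in intestine and 283 in carcass. Among the leading genes, the eliminated Tubulin alpha-2 chain (PgE040_g001) was at 860.3 RPKM in ovary, 1.0 in intestine, 2.5 in carcass and 153.2 in embryo. Tubulins build the spindle and other microtubules. Of 12 eliminated tubulin genes 7 were called in ovary and of 23 retained ones 3 were, where the shares over all genes were 26.4% and 15.3%. Most of the retained tubulins, and fewer of the eliminated ones, were under the 5 RPKM in ovary that a call requires. The retained Tubulin beta-2 chain (PgR007_g022) was at 1325.6 RPKM in ovary, 457.7 in intestine and 673.7 in carcass and was not called. Tubulins were looked at after their values had been seen.

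Histones, which package DNA, summed to 58590 RPKM in ovary as a list, above the 32896 RPKM of the eggshell list. Of 33 histone genes 18 were called higher in ovary (54.5%) and 0 in soma, or 12 under median-of-ratios scaling. Histone H2B 2 (PgR052_g010) was at 12719.1 RPKM in ovary, 154.3 in intestine, 36.7 in carcass, 13122.9 in embryo and 320.5 in testis. Histone H3 (PgR012_g127) was at 4384.3 RPKM in ovary, 120.3 in intestine, 31.6 in carcass and 6206.1 in embryo. Of the 18 called histones, 11 were at least as high in embryo as in ovary. Histone genes exist in near-identical copies, and PgR012_g130 (Histone H4, 8831.5 RPKM in ovary) lies inside PgR012_g131, so values of single copies are uncertain. Of the 4 eliminated histone genes, 0 were called.

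Chromatin genes had 21 of 94 members called in ovary (22.3%) and 0 in soma, or 5 under median-of-ratios scaling. The eliminated remodelling ATPase isw-1 (PgE323_g002) was at 66.4 RPKM in ovary, 1.1 in intestine and 0.3 in carcass. Set domain-containing protein 4 (PgR016_g112), of a family of protein methyltransferases, was at 91.9 RPKM in ovary, 4.9 in intestine and 4.3 in carcass. Splicing genes had 13 of 105 members called in ovary (12.4%), translation factors 14 of 72 (19.4%) and ribosomal proteins 9 of 133 (6.77%), shares near or under that of all genes. Under median-of-ratios scaling these counts were 3, 5 and 6. The median difference of ribosomal proteins from the mean of both somatic tissues was 0.97, and it changed sign under median-of-ratios and upper-quartile scaling. Among ribosomal proteins, 6 of 10 eliminated genes were called in ovary and 3 of 123 retained ones. Genes for cullin, F-box and BTB ligase adaptors, which select proteins for degradation, had 24 of 111 members called in ovary (21.6%) and 1 in soma, or 12 and 4 under median-of-ratios scaling. Zinc finger and BTB domain-containing PgR328X_g002 was at 195.7 RPKM in ovary, 1.8 in intestine and 2.6 in carcass.

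Gap junctions join oocytes to the sheath cells of the nematode gonad, and innexins are their subunits. Of 24 innexin genes 9 were called higher in ovary (37.5%) and 1 in soma, or 5 and 3 under median-of-ratios scaling and 2 and 1 without genes high in testis. Innexin unc-7 (PgR023_g041) was at 183.9 RPKM in ovary, 1.7 in intestine, 1.0 in carcass, 1.2 in embryo and 35.2 in testis. Its neighbour Innexin unc-9 (PgR023_g042) was at 10.7 RPKM in ovary, 120 in intestine and 32.9 in carcass. Innexin-16 (PgR054_g061), which couples intestinal cells in C. elegans, was listed at 0 in ovary and was at 40.9 RPKM in intestine and 11.9 in carcass. Wnt, Notch and Hedgehog-related genes had 18 of 101 members called in ovary (17.8%) and 5 in soma, or 11 and 6 under median-of-ratios scaling. Patched-related protein 9 (PgR055_g005), of the family of Hedgehog receptors, was at 416 RPKM in ovary, 2.7 in intestine, 1.2 in carcass and 258.5 in embryo. A second gene of that name in eliminated DNA, PgE131_g001, was at 182.7 RPKM in ovary, 4.7 in intestine and 0.7 in carcass. The Notch-like genes PgR024_g020 and PgR024_g021 were called in soma, the first at 2.8 RPKM in ovary, 71.9 in intestine and 194 in carcass.

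**Figure D3:**
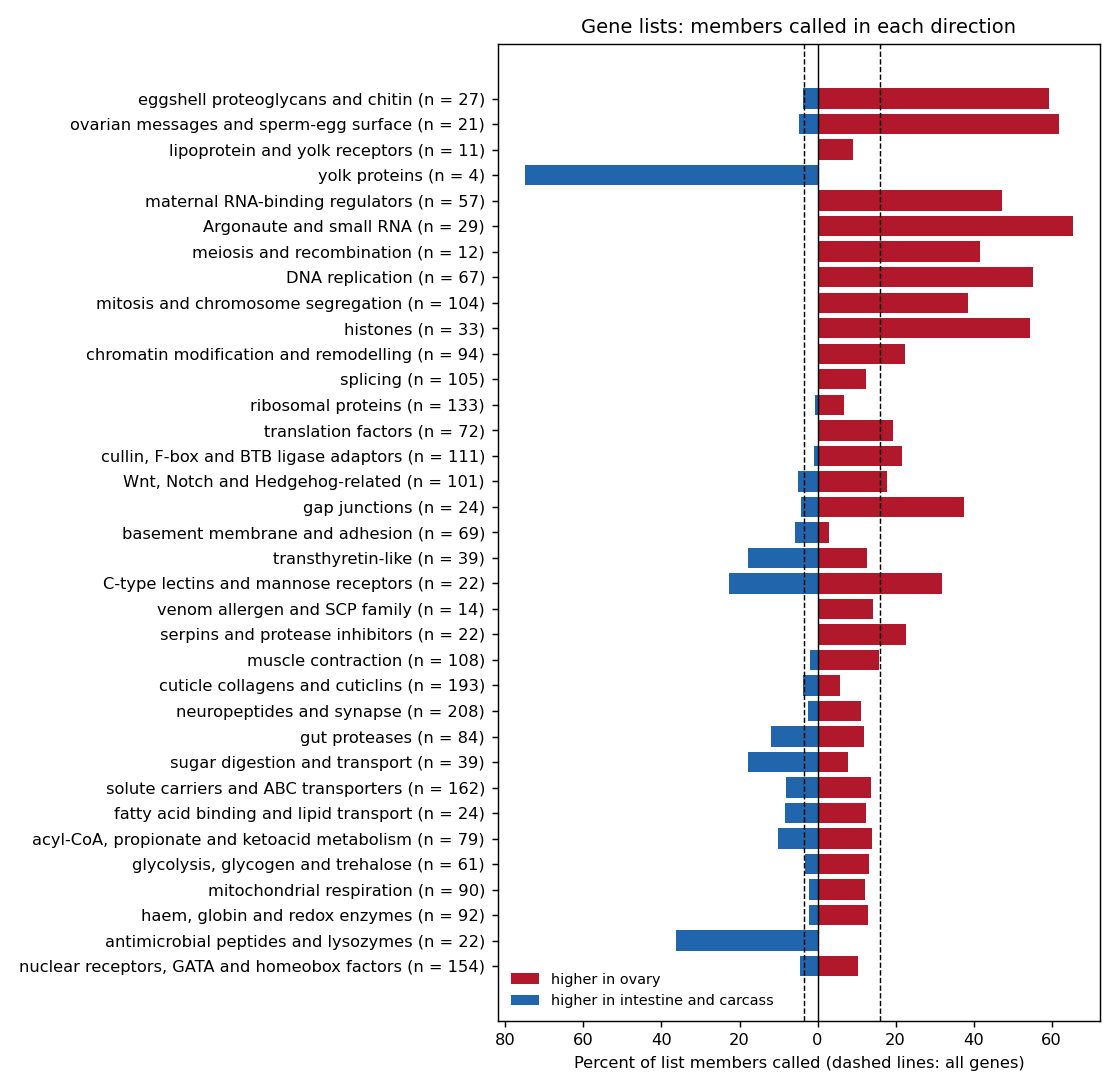
Bars give the percent of each list's members called higher in ovary (right) or higher in intestine and carcass (left), with the number of genes per list in brackets; dashed lines mark the 16.0% and 3.36% of all genes. Among the lists past the right line are eggshell genes, ovarian messages, germline regulators, replication, mitosis, histones, gap junctions and lectins. Yolk proteins reach furthest past the left line, followed by antimicrobial peptides, lectins, transthyretin-like and sugar digestion genes, so that lectins pass both lines. The yolk list holds only 4 genes, and of the 3 called in soma PgR126X_g019 and PgR126X_g020 lie inside PgR126X_g018.

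Genes of muscle, nerve and cuticle were called in ovary at shares no higher than the 16.0% of all genes. Muscle contraction genes had 17 of 108 called in ovary (15.7%) and 2 in soma, or 9 and 5 under median-of-ratios scaling. Myosin-4 (PgR016_g050) was at 498.2 RPKM in ovary, 2.5 in intestine, 2.3 in carcass and 397.7 in embryo. Troponin isoform 2 (PgB12X_g027), of striated muscle, was at 7.5 RPKM in ovary, 10.1 in intestine and 2174.4 in carcass. Another gene named myosin-4, PgR016_g048, was at 24.7 RPKM in ovary, 2.1 in intestine and 256.5 in carcass. Its ovary value lay between those of the somatic tissues, so it was not called. Neuropeptide and synapse genes had 23 of 208 called in ovary (11.1%) and 5 in soma, or 10 and 7 under median-of-ratios scaling. FMRFamide-like peptide 8 (PgR013_g104), a neuropeptide precursor, was at 172.3 RPKM in ovary, 1.3 in intestine, 1.8 in carcass and 61 in embryo. Cuticle collagens and cuticlins had 11 of 193 called in ovary (5.70%) and 7 in soma, or 8 and 10 under median-of-ratios scaling, and 44 were higher in soma when carcass alone was compared with ovary.

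Metabolic lists did not stand out on the ovary side. Acyl-CoA, propionate and ketoacid metabolism had 11 of 79 members called in ovary (13.9%) and 8 in soma (10.1%), or 5 and 16 under median-of-ratios scaling. Glycolysis, glycogen and trehalose genes had 8 of 61 called in ovary and 2 in soma, or 6 and 11 under that scaling. Mitochondrial respiration had 11 of 90 called in ovary and 2 in soma, or 2 and 4. Haem, globin and redox enzymes had 12 of 92 called in ovary and 2 in soma, or 4 and 5. Fatty acid binding and lipid transport genes had 3 of 24 called in ovary and 2 in soma, or 0 and 3. Nuclear receptors, GATA and homeobox factors, which control transcription, had 16 of 154 called in ovary (10.4%) and 7 in soma, or 5 and 13. Venom allergen and related secreted genes had 2 of 14 called in ovary and 0 in soma, or 2 and 1. In all of these lists but the venom allergens, the side with more calls differed between the scalings.

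Many of the ovary calls lie in DNA that somatic cells discard. Of the 2411 genes, 260 were marked eliminated (10.8%), against 985 of all genes (6.55%) and 7 of the 505 soma calls (1.39%). Put the other way, 260 of the 985 eliminated genes were called higher in ovary (26.4%), against 2151 of 14042 retained genes (15.3%). The median of the higher somatic value among the called genes was 0.4 RPKM for eliminated and 2.7 RPKM for retained ones. The call itself requires low somatic values, so both medians are partly fixed by it. The share of eliminated genes went from 5.43% among ovary calls with a difference of 2 to 3, through 14.5% and 20.1% to 23.8% at a difference of 5 to 6, and was 14.8% above 6. Besides the tubulin, chitin synthase and RNA regulators given above, Tyrosine-protein phosphatase non-receptor type 9 (PgE029_g001) was at 369.4 RPKM in ovary, 1.8 in intestine and 0.8 in carcass. Ovarian abundant message protein (PgE068_g001) was at 294.7 RPKM in ovary, 4.7 in intestine and 5.5 in carcass. Succinyl-CoA:3-ketoacid-coenzyme A transferase (PgE133_g001), an enzyme of ketone body use, was at 324.8 RPKM in ovary, 1.8 in intestine and 1.5 in carcass.

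Most ovary messages were also found in the embryo. Of the 2411 genes 2026 had at least 5 RPKM in embryo (84.0%, against 55.8% of all genes), and the median level was 29.1 RPKM in ovary and 15.8 in embryo. The call requires at least 5 RPKM in ovary and low somatic values, whereas all genes include 2574 listed at 0 in ovary. The shares over all genes in this paragraph are therefore not matched for ovary level, and part of each gap is fixed by the call. Embryo was at or above ovary for 369 of them (15.3%, against 49.0% of all genes). Fewer were shared with testis, where 1371 of the 2411 had at least 5 RPKM (56.9%, against 47.8% of all genes) and the median was 6.2 RPKM. At the other end, 93 genes (3.86%, against 5.95% of all genes) had at most 1% of the ovary level in embryo. Among these were 6 of the 7 called C-type lectins and mannose receptors, 4 of the 5 transthyretin-like genes, both venom allergen genes, 3 of the 16 eggshell genes and 4 of the 13 ovarian message and zonadhesin genes. RNA-binding protein 39 (PgB02X_g040), a splicing regulator, was 1 of the 93, at 713.1 RPKM in ovary, 3.5 in intestine, 1.5 in carcass, 1.1 in embryo and 16.3 in testis. The trypsin family protein PgR010_g099 was at 3.9 RPKM in embryo and 3.1 in testis, and the transthyretin-like protein PgR080_g022 at 1.3 and 0.2 RPKM. Both somatic tissues were under 1 RPKM for 730 of the 2411 genes (30.3%, against 26.7% of all genes). Both were listed at 0 for 152 (6.3%, against 11.2% of all genes).

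The 505 genes called higher in intestine and carcass were for the most part higher in intestine than in carcass. Intestine was above carcass for 404 (80.0%, against 55.1% of all genes). The median level was 55.0 RPKM in intestine, 21.6 in carcass and 0.5 in ovary. In 83 of the 505 (16.4%), testis was at least 4-fold above both somatic tissues, a share near the 15.3% of all genes. Of the other genes, 229 had a carcass value of at most 30% of intestine, with a median of 19.6%, a value that this limit and the overlap with the 102 genes above partly fix. Another 106 had a carcass value of 30% to 100% of intestine, and 87 had carcass at or above intestine. When 20% of each gene's intestine value was taken from carcass, 223 of the 505 stayed called (1.48% of all genes), and 173 stayed when the genes high in testis were left out as well. The part of intestinal RNA in these carcass values was not tested.

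**Figure D4:**
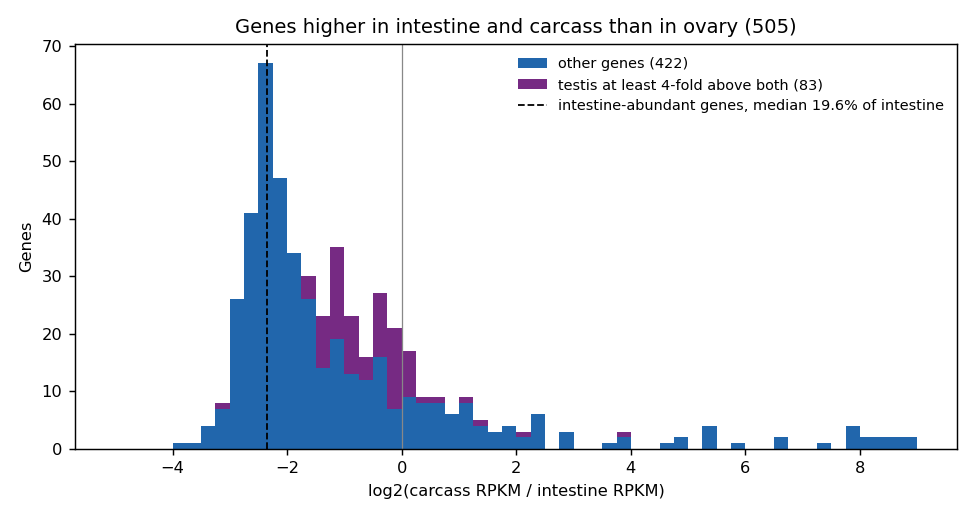
The histogram counts the 505 genes called higher in intestine and carcass by the log2 ratio of carcass to intestine RPKM, with the 83 genes at least 4-fold higher in testis in purple; the dashed line marks 19.6%, the median carcass share of 102 intestine-abundant genes, and the grey line equal values. The highest bar lies at the dashed line, and a long tail of genes reaches carcass levels far above intestine.

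The largest difference among the soma calls was that of a lectin, and digestive enzymes were among the genes that followed. C-type lectin protein 160 (PgR010_g149) was at 3.2 RPKM in ovary, 8734.8 in intestine, 2726 in carcass, 855.2 in embryo and 445 in testis. Its counting interval in ovary was 2.79 to 3.64 RPKM, and carcass was 852-fold above ovary, a difference of 9.34 on the log2 scale. Carcass held 31.2% of the intestine level, above the upper quartile of intestinal genes. Aminopeptidase N (PgR003_g017), an enzyme of the gut surface that trims peptides, lies inside another gene of that name, PgR003_g016, and was at 0.4 RPKM in ovary, 2321.8 in intestine and 332.5 in carcass. Maltase-glucoamylase (PgR007_g177) and Sucrase-isomaltase (PgR007_g176) split dietary sugars and overlap on opposite strands. The first was at 3.2 RPKM in ovary, 3508.2 in intestine and 480.9 in carcass, and the second at 4.5, 3376.1 and 505.4 RPKM. For these 3 enzymes, carcass was under 20% of intestine, and the call in carcass was lost and its direction reversed when that share was taken off.

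Transporters and enzymes of the gut had the same pattern. A proton myo-inositol cotransporter (PgR035X_g046) was at 0.3 RPKM in ovary, 1632.8 in intestine and 305.7 in carcass. Carbonic anhydrase 5 (PgB03_g005), an enzyme of acid balance, was at 0.2 RPKM in ovary, 994.4 in intestine and 192.5 in carcass. An actin gene (PgR037_g109) was at 0.8 RPKM in ovary, 1264.5 in intestine and 223 in carcass. All 3 genes also reversed in carcass with the intestinal share taken off. Intermediate filament protein ifa-1 (PgR129_g010) was at 0.7 RPKM in ovary, 1443.9 in intestine and 314.6 in carcass, and Glutathione S-transferase 1 (PgR074X_g043), a detoxifying enzyme, was at 1.4, 589.8 and 361.5 RPKM. Both stayed called. Cathepsin B-like cysteine proteinase (PgB04_g152), a digestive protease of nematodes, was listed at 0 in ovary and was at 327.4 RPKM in intestine and 106 in carcass. Sugar digestion and transport genes had 7 of 39 members called in soma (17.9%, against 3.36% of all genes) and 3 in ovary, or 10 and 2 under median-of-ratios scaling, and 1 stayed called in soma with the intestinal share taken off. Gut proteases had 10 of 84 called in soma, 5 of them with that share off, and 10 in ovary, or 18 and 2 under median-of-ratios scaling. Solute carriers and ABC transporters had 13 of 162 called in soma, 1 of them with that share off, and 22 in ovary, or 21 and 4 under median-of-ratios scaling.

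**Figure D5:**
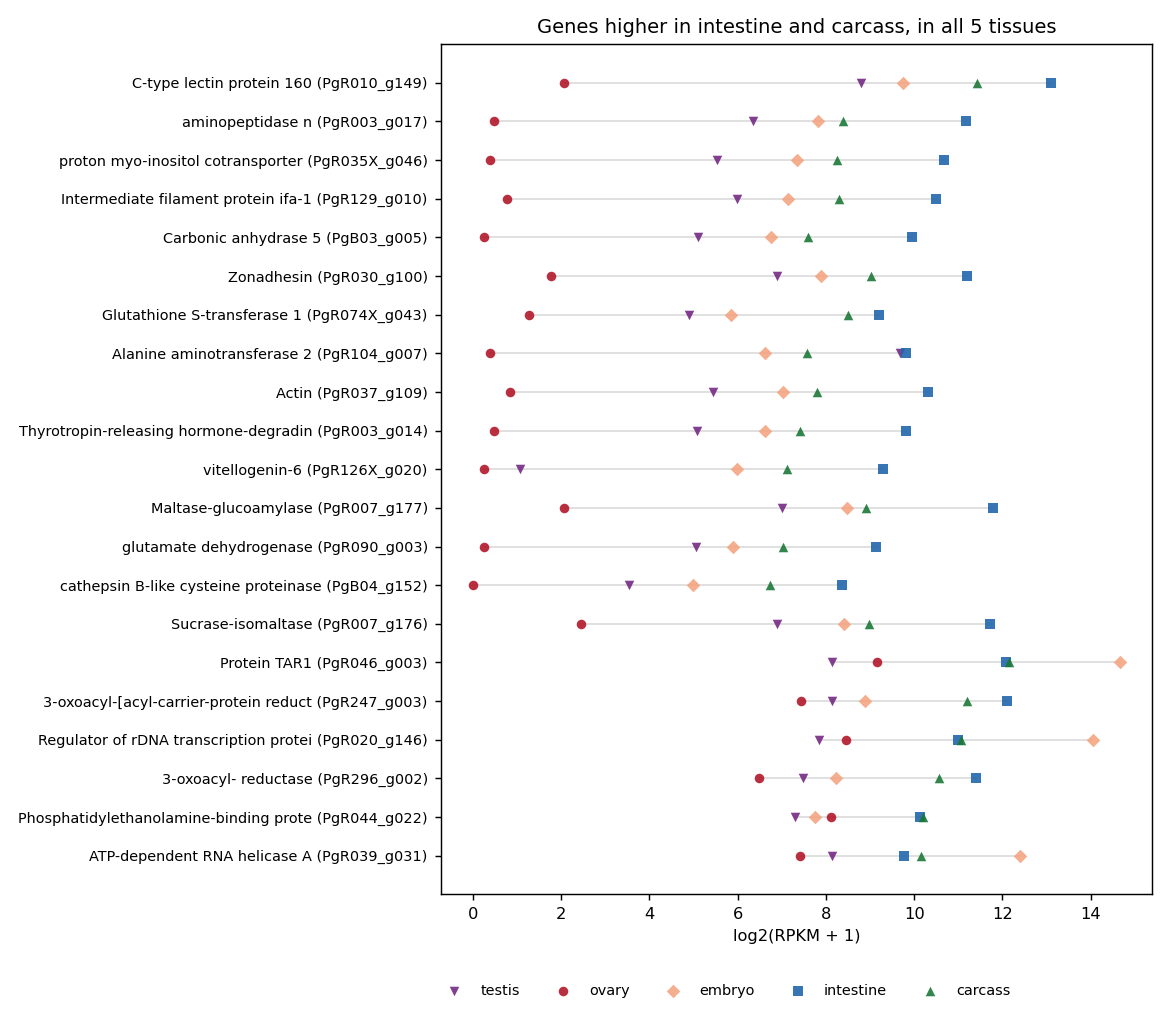
Each line of the plot is 1 gene called higher in intestine and carcass, named by the rule of largest difference or highest level, with log2(RPKM + 1) in the 5 tissues, 1 library each. In the upper 15 genes intestine is highest and ovary lowest, with carcass, embryo and testis in steps between them except for PgR104_g007, where testis lies beside intestine; in the lower genes the differences are smaller, and embryo is highest for TAR1, the rDNA regulator and the RNA helicase.

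Genes whose carcass value was at or above intestine were fewer. Antimicrobial peptides and lysozymes had 8 of 22 members called in soma (36.4%) and 0 in ovary, or 9 under median-of-ratios scaling and 7 with the intestinal share taken off. ASABF peptides kill bacteria in Ascaris. ASABF-alpha (PgR019_g012) was at 1.7 RPKM in ovary, 81.7 in intestine and 940.3 in carcass, and a second gene of that name (PgR141_g002) was at 4.2, 87.1 and 430.9 RPKM. ASABF-beta (PgR162X_g001) was at 2.5 RPKM in ovary, 66.1 in intestine and 363.5 in carcass. Ovary was the highest of the 3 tissues in 4 of the 22 members, and among these the ASABF-alpha gene PgR046_g051 had the highest level. It was at 186.6 RPKM in ovary, 71.9 in intestine and 45.5 in carcass, a difference of 1.36 that was not called. The median difference of the list was -4.55 for ovary less carcass and -0.25 for ovary less intestine.

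Some enzymes and antigens were also far higher in carcass than in intestine. Acetyl-CoA acetyltransferase A (PgR127_g002) was at 0.8 RPKM in ovary, 39.8 in intestine and 1522.2 in carcass, and 2-methyl branched-chain enoyl CoA reductase (PgR002_g106) was at 0.7, 30.1 and 1761.9 RPKM. OV39 antigen (PgB20_g007) was at 3.5 RPKM in ovary, 63.6 in intestine and 15184.2 in carcass. Each of the 3 had an intestine level far below carcass and still 4-fold or more above ovary. Basement membrane and adhesion genes had 4 of 69 members called in soma and 2 in ovary, or 8 and 1 under median-of-ratios scaling. SPARC (PgB04_g001), which binds collagen in basement membranes, was at 25.1 RPKM in ovary, 17.3 in intestine and 997.8 in carcass, and so was high in carcass alone and not called.

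Genes named for ribosomal DNA were among the soma calls with the highest levels. Protein TAR1 (PgR046_g003), whose namesake in yeast is encoded antisense to ribosomal RNA, was at 565.6 RPKM in ovary, 4308.9 in intestine, 4537.4 in carcass and 25985 in embryo. A regulator of rDNA transcription (PgR020_g146) was at 350.7 RPKM in ovary, 2030.3 in intestine, 2144.3 in carcass and 17034.4 in embryo. Ribosomal RNA was depleted with a mammalian kit, per the labels, and the amount left in each library was not tested. ATP-dependent RNA helicase A (PgR039_g031) had the same order, at 168.2, 866.1, 1146.5 and 5417.8 RPKM, but its sign reversed when the longest transcript was used. 3-oxoacyl reductase (PgR296_g002) was at 88.9 RPKM in ovary, 2710.6 in intestine and 1501.9 in carcass, so that not all of the most abundant genes were of this kind.

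Sperm genes were called in soma as well. Of the 63 sperm markers, 13 were called higher in intestine and carcass (20.6%, against 3.36% of all genes) and 2 in ovary. The count in soma was 21 under median-of-ratios scaling and 7 with carcass less 20% of intestine. It was 0 without the genes high in testis, a removal that by its rule takes out genes of this kind. Major sperm protein isoform beta (PgE404_g001), the cytoskeletal protein by which nematode sperm crawl, was at 1.2 RPKM in ovary, 180.2 in intestine, 74.0 in carcass and 6855.5 in testis. It lies in eliminated DNA, as did 7 of the 505 genes, of which 6 were higher in testis than in any other tissue. The exception was a hypothetical gene, PgE495_g001, at 61.9 RPKM in intestine, 13.2 in carcass, 7.2 in embryo, 3.6 in testis and listed at 0 in ovary. Its carcass value was 21.3% of intestine.

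The 5′ marks differed between the sides. A spliced leader, a short RNA that nematodes join to the 5′ end of many messages, was marked for 49.2% of ovary calls, 41.0% of soma calls and 33.4% of all genes. The mark of the TeloPrime library, which captures capped 5′ ends, was on 15.7%, 41.4% and 14.2%. Both marks come from mixed samples, and their frequency differed with the level of a gene. Among genes with 20 to 100 RPKM in the highest of the 3 tissues, the spliced leader was marked for 52.7% of 1258 ovary calls, 44.5% of 236 soma calls and 46.1% of 2769 genes with neither call. The TeloPrime mark was on 13.5%, 27.1% and 13.8% of the same groups. At 5 to 20 RPKM the groups lay furthest apart in this mark. There it was on 7.16% of 810 ovary calls, 47.5% of 80 soma calls and 8.69% of 3441 genes with neither call. At 100 RPKM or more it was on 44% of 343 ovary calls, 56.6% of 189 soma calls and 51.2% of 693 genes with neither call, so that the groups lay closer together. The calls of neighbouring genes were also compared. The next gene on the scaffold that did not overlap was called higher in ovary for 482 of 2209 ovary calls (21.8%), against 16.0% of all such neighbours, and called in soma for 62 of 482 soma calls (12.9%), against 3.27%. In 98 of the 482 ovary pairs and 37 of the 62 soma pairs both genes had the same annotation. These pairs are included in the 21.8% and 12.9%, and for ovary they make up much of the gap to all neighbours.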

How the data were processed

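The authors' deposited table gives 40487 transcripts with 1 RPKM value per tissue, to 1 decimal; the unit was read from the values, which fall on whole reads divided by length (all 54, 37 and 68 low values used in ovary, intestine and carcass, within rounding to 1 decimal). The submitters' processing notes name TopHat2 and Cufflinks, with no version. Per the labels' protocols, Trizol was used for extraction and TotalScript for rRNA-depleted libraries. The sources used here give no genome build, no rule for multi-mapping reads and no use of strand, and no sequence is printed.

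A gene was represented by its transcript with the highest mean over the 5 tissues (7964 genes have more than 1 transcript). Differences are on log2(RPKM + 1), which understates low genes. Intervals are exact Poisson at 95% and cover counting error only, as does the floor of 3 reads. No model was fitted and no p-value computed. Values of near-identical genes, of 425 genes inside another on the opposite strand (258 of the same annotation) and of 1041 genes without strand are uncertain. Named genes are, per direction, the 15 largest differences among annotated called genes of at least 20 RPKM and the 10 highest levels, each with 1 gene per annotation text, and per list the 4 highest means; others were picked after their values were seen. Lists were made by words in the annotations, and members matched by part of a word were removed after values were seen. Members and lists were chosen with earlier results of these data known. Alternatives changed pseudocount, threshold, minimum, transcript, scaling, somatic reference and overlapping genes. The code was tested on simulated data. Python 3.11.15, numpy 2.4.6, pandas 2.3.3, scipy 1.17.1 and matplotlib 3.10.9 were used. The result for 1 gene of the meiosis list is not reported here.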

Additional observations from a re-analysis of the deposited data

Results flagged for a closer look

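In 2 genes ovary was at least 4-fold above intestine and at least 4-fold below carcass, opposite directions for the somatic tissues; with 1 library each, the difference was not tested. A spindle- and centromere-associated protein (PgR022X_g023) was at 21.2 RPKM in ovary, 3.0 in intestine and 263.9 in carcass, so ovary less intestine was 2.47 and ovary less carcass was -3.58 on the log2 scale. Cuticle collagen 34 (PgR105_g020) was at 243.8 RPKM in ovary, 14.6 in intestine and 4436.6 in carcass, with 3.97 and -4.18. Over all genes 33 had this pattern and 0 had the reverse. For the collagen, 104.3 RPKM in embryo and 4.5 in testis lay beside the ovary value; 14 cuticle genes with at least 500 RPKM in carcass had a median of 0.0665% of that level in ovary.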

How the results depend on the processing

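The median difference of 1.11 became 1.44 with a pseudocount of 0.1, 0.62 with 5, -0.11 with median-of-ratios, -0.02 with upper-quartile scaling, 0.75 without the 20 highest genes, 1.01 against the mean of both tissues, 0.96 against intestine, 1.31 against carcass, 1.35 with carcass less 20% of intestine and 1.38 with genes high in testis also left out, the last chosen after seeing the data, as were the authors' best expressed transcript and leaving out genes high in testis alone. Genes higher in ovary numbered 1183 with pseudocount 5, 4715 at 2-fold, 1103 at 8-fold, 1601 at a minimum of 20 RPKM, 925 and 983 with the first and second scaling, and 4035 against carcass. Genes higher in soma numbered 222, 303 and 222 with pseudocount 5, 8-fold and 20 RPKM, 868 and 819 with the 2 scalings, 1241, 926 and 1232 against the mean, intestine or carcass, 223 with carcass less 20% of intestine and 173 with genes high in testis also left out. Other alternatives kept both counts within 1.5 times.

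Lower soma less ovary reversed for PgR039_g031 (-1.02) with the longest transcript. With carcass less 20% of intestine, with or without genes high in testis, it reversed for PgR003_g017 (-0.49), PgR035X_g046 (-0.38), PgB03_g005 (-0.26), PgR037_g109 (-0.85), PgR003_g014 (-0.49), PgR007_g177 (-2.07), PgR007_g176 (-2.46), PgR007_g115 (-0.58), PgR003_g018 (-2.96), PgB02X_g203 (-0.58), PgB04_g139 (-0.68) and PgB16_g005 (-1.32), since their carcass value was under or near that share. Of 4923 values of 253 named genes under 20 alternatives, 4572 kept their call, 152 lost it, 174 gained one and 25 reversed. Of the genes named here, PgR003_g120 and PgR028_g026 lost it under median-of-ratios scaling (0.25 and 1.79). Of 1640 list counts over these alternatives, 440 moved by more than 1.5 times. No paired analysis was possible because each tissue has 1 library, and no replicate could be left out.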
